A study of Mus musculus with 16 samples.

Results

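Srebf1 and 9 genes of de novo fatty acid synthesis (Fasn, Acly, Acaca, Acacb, Thrsp, Aacs, Pklr, Me1 and Elovl6) were followed in mouse liver across 4 feeding groups. The genes were chosen by name, and tags were summed per mouse gene symbol, so that 10 of the 20826 symbols of the table were taken. All 10 had at least 1 tag, 7 were among the 1046 genes that passed the filter on low counts, and Elovl6, Acaca and Me1 were not. Transcripts were counted by SuperSAGE, which reads 1 short tag per captured polyadenylated transcript, so a level does not scale with transcript length. Levels are given in CPM, the tag count relative to the normalised library total, on a scale common to all mice.

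The 16 mice were male C57BL/6J, 4 weeks of age when housed per the labels, and ate their diet for 18 weeks. N mice ate a normal diet (D12450B, 10% fat) and HF mice a high-fat diet (D12451, 45% fat). NW and HFW mice ate the normal and the high-fat diet with 1% WEPAK added, a water-soluble Pacific krill extract. Each group held 4 mice, each mouse gave 1 library, and mice are named here by group and number. The labels give no preparation or sequencing batch, and whether mice shared cages or litters is not stated.

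De novo lipogenesis turns carbohydrate into fatty acids. Pyruvate kinase ends glycolysis, the citrate it feeds leaves the mitochondria and is split to acetyl-CoA, acetyl-CoA carboxylase makes malonyl-CoA, and fatty acid synthase builds palmitate with NADPH, and an elongase lengthens it. In liver, insulin acts on this pathway largely through SREBP-1c, a membrane-bound transcription factor encoded by Srebf1 that is cut free and enters the nucleus, and glucose acts through ChREBP. The level of the Srebf1 transcript is therefore not a measure of the active nuclear protein, which was not measured here.

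The tag that stands for each gene was predicted from the last NlaIII site (CATG) of its transcript in GENCODE M21, build GRCm38. The sequences of the 5 members with the most tags are shown because a count should stand for such a tag. The table gives counts per RefSeq transcript and no tag sequences, and whether the counted tags were these was not tested. CATG, the site where the cDNA was cut, is in capitals.
Srebf1: CATGgctcataacccttgaggggcct
Fasn: CATGcagcagtagaaaagactaagtt
Pklr: CATGctacagtgtacttctgaagggg
Thrsp: CATGaacctaactattgtagtagcaa
Acly: CATGtttgctttaaataaactagata
The Srebf1 tag lies at chr11:60199418-60199443 on the minus strand, the Fasn tag at chr11:120806003-120806028 (minus), the Pklr tag at chr3:89146442-89146467 (plus), the Thrsp tag at chr7:97412957-97412982 (minus) and the Acly tag at chr11:100476363-100476388 (minus). For all 10 members the predicted tag was in the 3' UTR, in the last exon, and was found in 1 gene only. The Srebf1 tag is shared by 2 of its 3 coding transcripts. SREBP-1a and SREBP-1c differ at the 5' end of the transcript, so a tag at the 3' end does not separate them. Acly, Me1 and Pklr each have a second RefSeq entry with the same predicted tag, and that entry was at 0 in every mouse.

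Libraries held 56655 to 149349 tags in named genes (median 79475.5). On the normalised scale 1 tag stood for 6.26 CPM (HF mouse 25) to 18.7 CPM (NW mouse 15). In a principal component analysis of the 500 genes that varied most, component 1 held 44.5% of the variance, and NW mice scored 11.1 to 15.0, HFW mice -0.25 to 6.85 and HF mice -15.6 to -8.61. N mice 4 and 8 stood apart from N mice 5 and 7, at -16.5 and 4.90 against -4.16 and -1.16, and the members' values that passed a test are also given without them. The defining hepatocyte markers were present, with 11 of 12 in the table and a summed level of 56538 to 110065 CPM, while 7 of 10 adipocyte markers (Adipoq, Cfd, Cidea, Fabp4, Lep, Plin1 and Retn) were at 0 tags in every mouse and the other 3 summed to 2146 to 9733 CPM. In bulk liver RNA, fewer cells of a type and less RNA per cell cannot be told apart.

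WEPAK went with lower Acly and higher Thrsp transcript levels when its effect was averaged over both diets. Acly fell 2.33-fold and Thrsp rose 2.75-fold, and the remaining 5 tested members did not pass by edgeR. DESeq2 called the same 2 members, and limma-voom and edgeR with no filter on low counts also called Srebf1, as lower. The 2 of 7 members called by edgeR (28.6%) compare with 31.3% of all 1046 genes called in the same contrast, so that the share of members called was near the background. Among all genes 15.2% were higher and 16.1% lower. The median log2 fold change was -0.01 for the 7 members and 0.03 for all genes.

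**Figure D1:**
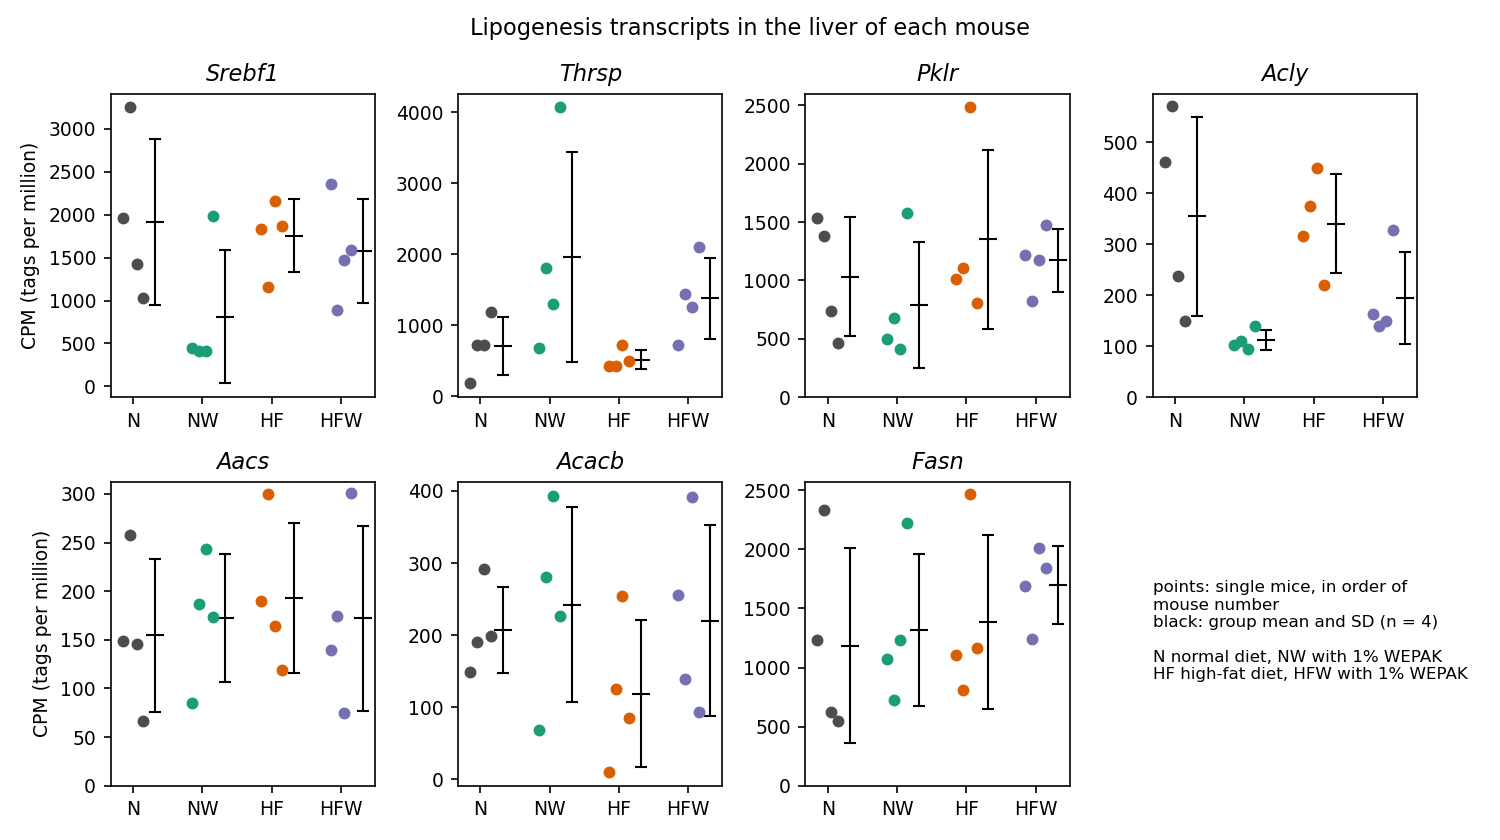
Level of the 7 tested members in each mouse (vertical axes, CPM, a separate scale per gene) by feeding group, with the group mean and SD (n = 4) in black. Acly reaches at most 139 CPM in the NW mice, Thrsp at least 719 CPM in the HFW mice, and NW mouse 20 is far above the other NW mice for Srebf1.

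Acly encodes ATP citrate lyase, which makes the cytosolic acetyl-CoA used for fatty acids and sterols. In N mice 4, 5, 7 and 8 it stood at 461, 572, 238 and 149 CPM, and in NW mice 11, 12, 15 and 20 at 102, 110.5, 93.6 and 139 CPM. It stood at 316, 375, 450.4 and 220.4 CPM in HF mice 23, 25, 28 and 29, and at 162, 139.8, 149 and 329 CPM in HFW mice 34, 36, 38 and 40. Every NW mouse was below every N mouse, whereas HFW mouse 40 lay within the range of the HF mice. The nearest mice, N mouse 8 and NW mouse 20, had 149 and 139 CPM, from only 9 and 8 tags. Of all genes 8.89% had each NW mouse below each N mouse.

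In order, the Acly means were 355 ± 195 CPM in N, 341 ± 97.2 in HF, 195 ± 89.7 in HFW and 111 ± 19.7 in NW (SD, n = 4). No neighbouring pair in this order passed the test. Acly fell by 1.22 on the log2 scale in the mean WEPAK effect (SE 0.27), with an adjusted p of 0.00113 in the quasi-likelihood test of edgeR after Benjamini-Hochberg adjustment over all tested genes, and was lower in 8 of 8 WEPAK mice than the mean of the matching diet. In NW against N it fell by 1.70 (SE 0.40, edgeR adjusted p = 0.00783), the 1 of 7 members called (14.3%) where 11.0% of all genes were called and 7.36% were lower. In HFW against HF its log2 fold change was -0.74 (SE 0.35, edgeR adjusted p = 0.161), and -1.20 (edgeR adjusted p = 0.0643) without HFW mouse 40. The difference between the diets in the WEPAK effect on Acly was 0.95 (SE 0.54) and did not pass (edgeR adjusted p = 0.998). Without N mice 4 and 8 the mean WEPAK effect on Acly was -1.35 (edgeR adjusted p = 0.000373) and NW against N -1.91 (edgeR adjusted p = 0.00911). The Acly counts behind these values were 5 to 60 tags per mouse.

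Thrsp encodes THRSP (Spot 14), a small nuclear protein induced by thyroid hormone and carbohydrate that promotes lipogenic gene expression. It stood at 179, 725, 715 and 1179 CPM in N mice 4, 5, 7 and 8, and at 682, 1801, 1292 and 4067 CPM in NW mice 11, 12, 15 and 20. HF mice 23, 25, 28 and 29 had 421, 426, 712 and 492 CPM, and HFW mice 34, 36, 38 and 40 had 719, 1433, 1248 and 2104 CPM. Each HFW mouse was above each HF mouse, though by 719 against 712 CPM at the nearest point, and N and NW overlapped. Of all genes 6.79% had each HFW mouse above each HF mouse.

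The Thrsp means ran from 1961 ± 1477 CPM in NW and 1376 ± 572 in HFW to 699 ± 409 in N and 513 ± 137 in HF (SD, n = 4). NW and HFW did not pass against each other, nor did N and HF, and HFW was not compared with N. Thrsp rose by 1.46 on the log2 scale in the mean WEPAK effect (SE 0.37, adjusted p = 0.00809, edgeR quasi-likelihood test) and was higher in 7 of 8 WEPAK mice. The log2 fold changes within diets were similar in size, at 1.49 (SE 0.53) in NW against N and 1.43 (SE 0.52) in HFW against HF, and neither passed (edgeR adjusted p = 0.0734 and 0.0918). By DESeq2 or with no filter both passed, and by limma-voom NW against N passed. NW mouse 20 had 2.26 times the Thrsp level of the next NW mouse, and without it the value in NW against N was 0.93 (edgeR adjusted p = 0.185). Without HFW mouse 40 the value in HFW against HF was 1.10 (edgeR adjusted p = 0.266). With each mouse left out in turn, NW against N passed in 2 of 16 fits and HFW against HF in 3 of 16. Without N mice 4 and 8 the mean WEPAK effect on Thrsp was 1.40 (edgeR adjusted p = 0.0144), and NW against N was 1.42 (edgeR adjusted p = 0.199). The summed level of hepatocyte markers had a higher mean with WEPAK in both diets, with overlapping ranges, and was not tested itself. It was 63934 to 90313 CPM in N (mean 73781) and 89982 to 110065 in NW (mean 97856). In HF it was 56892 to 67977 (mean 61958) and in HFW 56538 to 83630 (mean 75322). Its part in the Thrsp and Acly values was not tested.

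**Figure D2:**
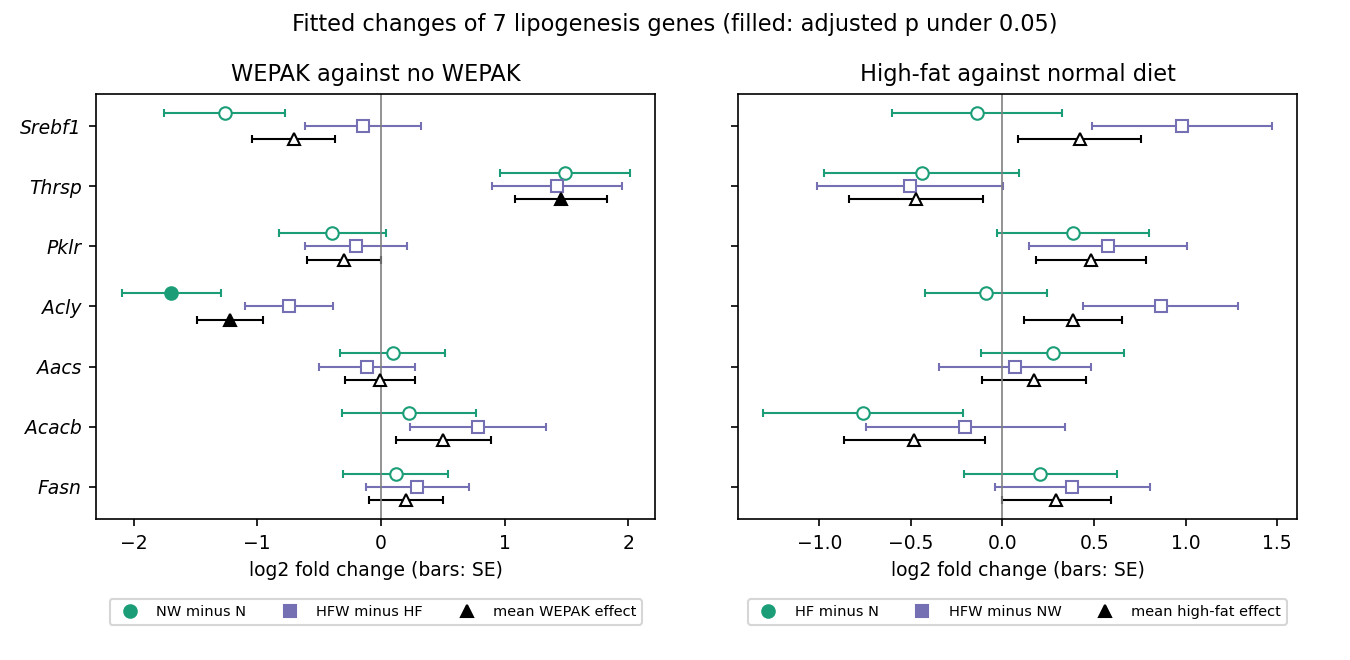
Fitted log2 fold change of each tested member (horizontal axes, bars show the SE) for WEPAK against no WEPAK on the left and high-fat against normal diet on the right. Filled symbols mark an edgeR adjusted p under 0.05, which Acly reached in NW minus N and in the mean WEPAK effect and Thrsp in the mean WEPAK effect only.

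Srebf1 stood at 1964, 3252, 1429 and 1029.9 CPM in N mice 4, 5, 7 and 8. NW mice 11, 12 and 15 had 444, 416 and 412 CPM, below every other mouse of the study, and NW mouse 20 had 1982 CPM. HF mice 23, 25, 28 and 29 had 1832, 1158, 2162 and 1873 CPM, and HFW mice 34, 36, 38 and 40 had 2355, 891, 1472 and 1588 CPM. Thus 3 of 4 NW mice were low and the fourth lay inside the range of the N mice.

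By mean level the groups ranked N (1919 ± 967 CPM), HF (1756 ± 425), HFW (1576 ± 602) and NW (813 ± 779; SD, n = 4), and no neighbouring pair passed the test. The log2 fold change of Srebf1 in NW against N was -1.26 (SE 0.49, edgeR adjusted p = 0.101), and -2.11 without NW mouse 20 (edgeR adjusted p = 0.00143). With all 16 mice it passed with no filter (-1.34, edgeR adjusted p = 0.0205), by DESeq2 (-1.24, adjusted p = 0.0462) and by limma-voom (-1.51, adjusted p = 0.0255). In the mean WEPAK effect it was -0.71 (SE 0.34, edgeR adjusted p = 0.121), and -1.13 without that mouse (edgeR adjusted p = 0.000931). With all 16 mice this value also passed by limma-voom (-0.85, adjusted p = 0.0249) and with no filter (-0.84, edgeR adjusted p = 0.0183), and it did not pass by DESeq2. In HFW against HF it was -0.15 (SE 0.47). The difference between the diets in the WEPAK effect on Srebf1 was 1.12 (SE 0.67) and did not pass (edgeR adjusted p = 0.998).

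Pklr, which encodes the liver pyruvate kinase, ranged from 412 CPM in NW mouse 15 to 2489 CPM in HF mouse 28. It stood at 1532, 1383, 741 and 465 CPM in N mice 4, 5, 7 and 8, at 495, 679.7, 412 and 1582 CPM in NW mice 11, 12, 15 and 20, at 1011, 1108, 2489 and 805 CPM in HF mice and at 1218, 821, 1174 and 1475 CPM in HFW mice, in order of mouse number. The groups overlapped in each comparison. The Pklr log2 fold change in the mean WEPAK effect was -0.30 (SE 0.30), and its largest value in any contrast was 0.58 (SE 0.43) in HFW against NW.

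Fasn, fatty acid synthase, had 1235, 2336, 622 and 548 CPM in N mice 4, 5, 7 and 8 and 1075, 722, 1236 and 2225 CPM in NW mice 11, 12, 15 and 20. HF mice 23, 25, 28 and 29 had 1105, 814, 2465 and 1161 CPM, and HFW mice 34, 36, 38 and 40 had 1694, 1241, 2012 and 1841 CPM. Its mean was highest in HFW (1697 ± 331 CPM) and lowest in N (1185 ± 827 CPM; SD, n = 4), with all groups overlapping. The Fasn mean WEPAK effect was 0.21 (SE 0.30, edgeR adjusted p = 0.640), an interval of -0.39 to 0.80 at 2 SE.

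Acacb, the mitochondrial acetyl-CoA carboxylase whose malonyl-CoA restrains fatty acid oxidation, had group means of 207 ± 60.0 CPM in N and 242 ± 135 in NW, and of 119 ± 102 in HF and 220.1 ± 133 in HFW (SD, n = 4). HF mouse 23 had 10.5 CPM of Acacb, from 1 tag, against 125, 254 and 84.8 CPM in HF mice 25, 28 and 29. The Acacb values in its contrasts ran from -0.76 (SE 0.55) in HF against N to 0.78 (SE 0.55) in HFW against HF, and none passed. Aacs, acetoacetyl-CoA synthetase, which returns ketone bodies to lipid synthesis, had group means of 155 ± 78.5, 172 ± 65.4, 193 ± 77.3 and 172 ± 95.1 CPM in N, NW, HF and HFW (SD, n = 4). Its mean WEPAK effect was -0.01 (SE 0.29), an interval of -0.58 to 0.57 at 2 SE.

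Acaca, the cytosolic acetyl-CoA carboxylase, gave 19 tags in all. These were 2, 2, 1 and 1 in N, 4, 1, 2 and 0 in NW, 1, 0, 1 and 0 in HF and 1, 0, 1 and 2 in HFW, in order of mouse number. The 4 HF mice were below the 4 N mice in CPM, at 0 to 10.5 against 13.2 to 29.8. This order is of 0 or 1 tag per HF mouse against 1 or 2 per N mouse. HF libraries were also deeper, with a median of 117355 tags against 69351 in N, so that 1 tag stood for fewer CPM. Of the tested genes, which leave out Acaca and have more tags, 1.72% showed the same order. Elovl6, the elongase that turns palmitate into stearate, gave 26 tags with 0 to 3 per mouse, and Me1, the cytosolic malic enzyme that makes NADPH, gave 14 tags with 0 to 2 per mouse and 0 in 6 mice. In a fit of the 10171 genes with a tag and no filter, 0 of these 3 genes passed in any contrast by edgeR, and 0 with an unadjusted p under 0.05. In that fit 0.00983% of all genes were called in HF against N, 0% in HFW against NW, 0.295% in the mean high-fat effect, 1.04% in HFW against HF, 0.688% in NW against N, 2.50% in the mean WEPAK effect and 0% in the interaction. DESeq2 without the filter also called 0 of the 3. The smallest edgeR adjusted p was 0.522, for Me1 in the mean WEPAK effect. The predicted tag is in 2 of 7 coding transcripts of Acaca, 1 of 5 of Elovl6 and 2 of 2 of Me1, and its part in these low counts was not tested. A change in these 3 genes was not detectable with these counts.

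The high-fat diet gave no called member in any of its contrasts. In HF against N 0 of 7 members passed by edgeR, with 0 at an unadjusted p under 0.05, where 0.0956% of all genes passed, and the smallest adjusted p among members was 0.648. In HFW against NW 0 of 7 passed, with 0 at an unadjusted p under 0.05, where 0% of all genes passed. In the mean high-fat effect 0 of 7 passed, with 0 at an unadjusted p under 0.05, where 0.574% of all genes passed. DESeq2 and limma-voom also called 0 members in these 3 contrasts. In the same order DESeq2 called 2, 0 and 34 of all 1046 genes and limma-voom 0, 0 and 5. In HFW against NW Srebf1 had 0.98 (SE 0.49) and Acly 0.86 (SE 0.42). For Acly each HFW mouse was above each NW mouse, as seen in 5.74% of all genes. The nearest mice, HFW mouse 36 and NW mouse 20, had 139.8 against 139.1 CPM, from 8 tags each, so library scaling alone set their order. Without NW mouse 20 the Srebf1 value was 1.86 (edgeR adjusted p = 0.0197), and without HFW mouse 40 the Acly value was 0.38.

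In HFW against HF 0 of 7 members passed by edgeR, with 2 (Thrsp and Acly) at an unadjusted p under 0.05, where 9.85% of all genes passed. DESeq2 called 1 member there, Thrsp, and limma-voom 0, beside 109 and 104 of all 1046 genes. The interaction of diet and WEPAK called 0 of 7 members, with 0 at an unadjusted p under 0.05, and 0% of all genes by edgeR. DESeq2 and limma-voom called 0 as well, of the members and of all genes.

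Several members were high or low in the same mice. HF mouse 28 had the highest HF level for 6 of the 7 tested members, NW mouse 20 the highest NW level for 5, and N mouse 5 and HFW mouse 40 the highest of their groups for 4 each. N mouse 8 had the lowest N level for 5 members and HFW mouse 36 the lowest HFW level for 4. The summed level of the 7 members was 10395 CPM in NW mouse 20, 8715 in N mouse 5 and 8697 in HF mouse 28, and was lowest in NW mouse 11, at 2952 CPM.

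**Figure D3:**
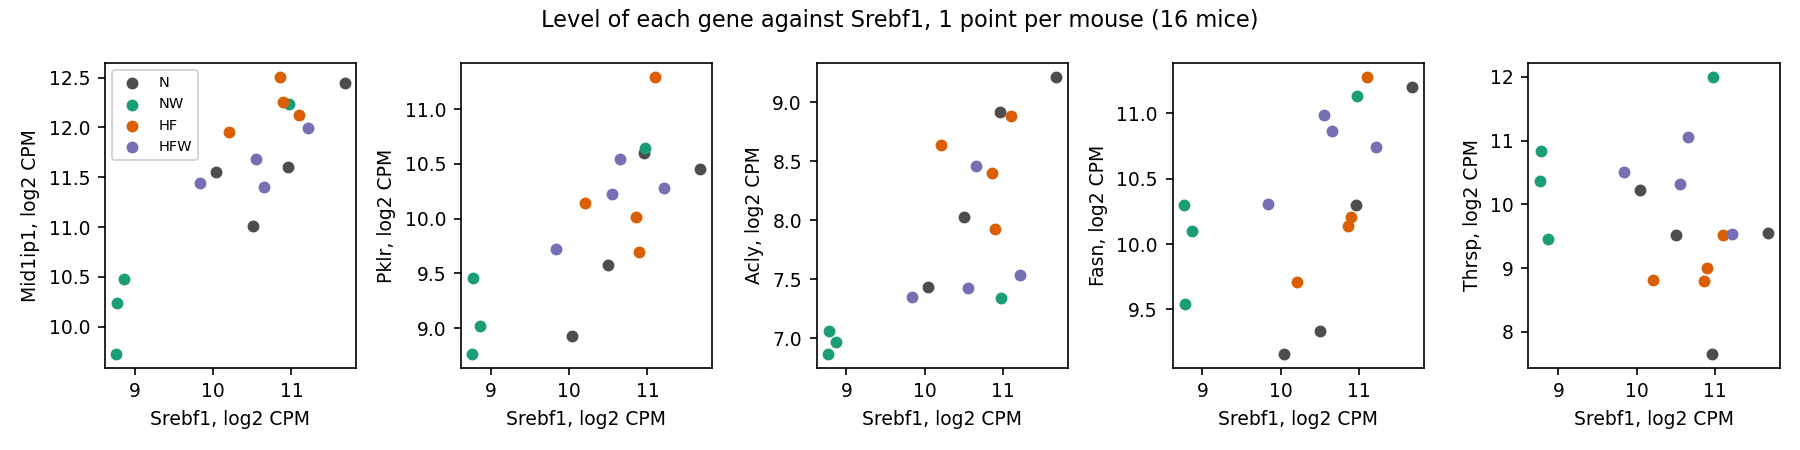
Level of Mid1ip1, Pklr, Acly, Fasn and Thrsp (vertical axes, log2 CPM) against Srebf1 (horizontal axes, log2 CPM), with 1 point for each of 16 mice coloured by group. The 3 NW mice at the left of each panel lie apart from the other 13, and Thrsp shows no rise with Srebf1.

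Srebf1 was set against the other 6 tested members from mouse to mouse, and 3 NW mice formed a separate cluster at 412 to 444 CPM. Over the other 13 mice Pearson's r with Srebf1 was 0.64 for Fasn (permutation p = 0.0168, 0.0772 adjusted over 6 pairs; Spearman's rho 0.66, p = 0.0168, adjusted 0.0503). For Pklr r was 0.61 (permutation p = 0.0257, adjusted 0.0772; rho 0.68, p = 0.0130, adjusted 0.0503), and for Acly 0.50 (permutation p = 0.0799, adjusted 0.160; rho 0.40, p = 0.184, adjusted 0.367). Leaving out HFW mouse 36 and N mouse 5, the farthest from the Srebf1 median, gave r of 0.71 for Fasn, 0.66 for Pklr and 0.14 for Acly. None of the 6 pairs passed after adjustment. Thrsp had an r of -0.18 (permutation p = 0.554; rho -0.14, p = 0.654), Aacs 0.23 (p = 0.448; rho 0.08, p = 0.808) and Acacb 0.03 (p = 0.931; rho 0.15, p = 0.628) over the 13 mice.

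With the 3 low NW mice included, r over 16 mice was 0.77 for Pklr (permutation p = 0.000350, adjusted 0.00210), 0.73 for Acly (permutation p = 0.00155, adjusted 0.00465) and 0.53 for Fasn (permutation p = 0.0334, adjusted 0.0667). Spearman's rho over 16 mice was 0.81 for Pklr (permutation p = 0.000230, adjusted 0.00138) and 0.67 for Acly (permutation p = 0.00584, adjusted 0.0175). For Fasn rho was 0.63 (permutation p = 0.0108, adjusted 0.0216), so Fasn passed by rho and not by r. Without NW mouse 20 the calls by r stayed, at 0.77 for Pklr and 0.79 for Acly (permutation p adjusted 0.00249 for each). Fasn then had an r of 0.51 (permutation p adjusted 0.105) and a rho of 0.56 (permutation p adjusted 0.0647). Leaving out NW mice 12 and 15, the farthest from the Srebf1 median of all 16 mice, gave r of 0.72 for Pklr, 0.62 for Acly and 0.53 for Fasn. The calls for Pklr and Acly, and that for Fasn by rho, were lost without NW mice 11, 12 and 15. They were left out for their low Srebf1 level, which also narrowed the Srebf1 range and left 13 mice. The lost calls alone therefore do not tell whether the relation held among the other mice. Deviations from the group means, given as a description over all 16 mice, had an r with Srebf1 of 0.80 for Fasn, 0.78 for Pklr and 0.52 for Acly. Fasn and Pklr deviated together with an r of 0.78.

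Of the other 1045 genes, those whose level was most like that of Srebf1 over 16 mice were Mid1ip1 (r = 0.89), Ints1 (0.81), Olig1 (0.78), E130309D02Rik (0.78) and Pklr (0.77). Mid1ip1, a relative of Thrsp that promotes the joining of acetyl-CoA carboxylase into filaments, had an r of 0.62 with Srebf1 over the 13 mice without the low NW cluster and 0.86 within groups. The lowest r with Srebf1 was -0.87 for 1300001I01Rik, then -0.81 for Ak3 and for 5730403B10Rik. The genes most like Thrsp included Whsc1l1 (0.93), Aldh1l1 (0.88), Npepl1 (0.86) and Shmt2 (0.85), and its lowest r was with Lcat (-0.90), Cmtm4 (-0.88) and Kdelr1 (-0.88). Acly was most like Ccdc107 (0.88), Zfp36l1 (0.88), Apoc1 (0.87), S1pr1 (0.85) and Gsk3b (0.84), and least like Rbbp5 (-0.88), 1300001I01Rik (-0.87) and Crebzf (-0.86). These lists had no gene in common among the highest. All values come from the same 16 libraries and were chosen as extremes, and no p is attached to them.

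Promoters of Thrsp and Acly are shown because these 2 members passed the test. The 250 bases before the RefSeq start (build GRCm38.p6) are written in the direction of the gene, and capitals mark CCAAT (the NF-Y box) or GGGCGG (the GC box) on either strand.
Thrsp: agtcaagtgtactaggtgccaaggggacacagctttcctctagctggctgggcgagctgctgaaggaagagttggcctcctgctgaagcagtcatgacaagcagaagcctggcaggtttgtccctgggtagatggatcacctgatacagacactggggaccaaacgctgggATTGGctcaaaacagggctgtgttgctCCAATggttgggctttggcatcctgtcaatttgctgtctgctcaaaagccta
Acly: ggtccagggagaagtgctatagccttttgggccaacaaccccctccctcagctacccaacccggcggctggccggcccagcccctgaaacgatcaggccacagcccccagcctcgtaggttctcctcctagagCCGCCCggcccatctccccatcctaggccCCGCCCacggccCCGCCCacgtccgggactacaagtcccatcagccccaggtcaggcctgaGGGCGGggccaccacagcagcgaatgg
The Thrsp window, chr7:97417551-97417800 on the minus strand, held 2 CCAAT and 0 GGGCGG matches, and the Acly window, chr11:100528001-100528250 on the minus strand, held 4 GGGCGG and 0 CCAAT matches. Over the 14 RefSeq windows of the 10 members CCAAT occurred in 7 and GGGCGG in 4, against 33.8% and 32.7% of all 32851 windows of the same length. TCACNCCAC, a sterol regulatory element core, and the E-box CACGTG occurred in 0 of the 14 windows, and in 1.05% and 6.02% of all windows, with both strands searched. A match is a run of letters and not a measured site, and any link of the matches to the WEPAK values was not tested.

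Around the members, 155 genes of lipogenic regulation and neighbouring lipid and glucose pathways were listed, of which 147 were in the table, 133 had a tag and 27 could be tested. In the mean WEPAK effect 5 of the 27 rose and 3 fell, which is 29.6% against 31.3% of all genes. The genes that rose included Slc2a2, Pgk1 and Dgat2, and those that fell included Pgd and Fads1.

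Slc2a2, the liver glucose transporter, rose by 0.86 in the mean WEPAK effect (SE 0.21, edgeR adjusted p = 0.00259), with 238 to 515 CPM in N mice, 382 to 805 in NW mice, 237 to 328 in HF mice and 332 to 596 in HFW mice. Pgk1, phosphoglycerate kinase, rose by 0.84 (SE 0.27, edgeR adjusted p = 0.0178). It did not pass without N mouse 4 (0.72, edgeR adjusted p = 0.0516) or without N mice 4 and 8 (0.76, edgeR adjusted p = 0.0610). Ldha, lactate dehydrogenase, fell by 1.10 in NW against N (SE 0.35, edgeR adjusted p = 0.0371), and did not pass without N mouse 4, 7 or 8, any 1 of the 4 NW mice or HFW mouse 40 (log2 fold changes of -1.16 to -0.78).

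Pgd, which makes NADPH in the pentose phosphate pathway, was the 1 tested gene of 14 listed for NADPH supply. It fell by 0.93 in the mean WEPAK effect (SE 0.29, edgeR adjusted p = 0.0147), with means of 341 ± 215 CPM in N and 150.1 ± 61.4 in NW, and of 472 ± 138 in HF and 286 ± 152 in HFW (SD, n = 4). Fads1, the delta-5 desaturase, fell by 0.96 in the mean WEPAK effect (SE 0.23, edgeR adjusted p = 0.00302) and by 1.27 in NW against N (SE 0.33, edgeR adjusted p = 0.0144). The second call was lost without N mouse 4 or 5 or NW mouse 11 or 15, with -0.81 without N mouse 5. Scd1, the stearoyl-CoA desaturase, did not pass for WEPAK (0.41, SE 0.21) and fell by 0.96 in the mean high-fat effect (SE 0.21, edgeR adjusted p = 0.0292), a call lost without any 1 of N mice 5 and 7, NW mice 11 and 15 and HF mouse 23, where the log2 fold change stayed at -0.97 to -0.86 (edgeR adjusted p = 0.0553 to 0.0632).

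Among genes of fatty acid activation and triglyceride synthesis 1 of 7 tested rose in the mean WEPAK effect, where 15.2% of all genes were higher. This was Dgat2, the last enzyme of triglyceride synthesis (0.67, SE 0.21, edgeR adjusted p = 0.0146). The contrasts HF against N, HFW against NW and the interaction called 0 of the 27 by edgeR, with 1, 6 and 1 at an unadjusted p under 0.05. Of all genes 0.0956%, 0% and 0% were called in them. DESeq2 called 1, 0 and 0 of the 27 in these contrasts, and 2, 0 and 0 of all 1046 genes. By limma-voom 0 were called in each, of the 27 and of all genes.

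Of 25 listed regulators of the pathway 3 could be tested, Mid1ip1, Scap and Rxra, and they passed in none of the 7 contrasts by edgeR with the filter. Mid1ip1 had means of 3412 ± 1506 CPM in N and 2050.4 ± 1847 in NW, and of 4764 ± 788 in HF and 3189.9 ± 635 in HFW (SD, n = 4), with -0.66 (SE 0.29, edgeR adjusted p = 0.0861) in the mean WEPAK effect. With no filter Mid1ip1 passed there (-0.80, edgeR adjusted p = 0.00144). Scap, which escorts SREBP proteins to the Golgi for cutting, had -0.37 (SE 0.18, edgeR adjusted p = 0.116). Mlxipl, which encodes ChREBP, and Nr1h3, which encodes the oxysterol receptor LXR alpha, had 51 and 14 tags over all 16 mice and were below the filter. So were Insig1 and Insig2, which hold SREBP proteins back in the endoplasmic reticulum, with 13 and 45 tags, and the citrate carrier Slc25a1 with 19. Acss2, G6pdx and Gpam had 12, 1 and 36 tags and were not tested either.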

How the data were processed

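The deposited table holds raw SuperSAGE tag counts per RefSeq transcript in 16 columns that name the mice, per the file headers. The RefSeq release and the treatment of tags shared by transcripts are not stated in the sources used here. No molecular identifiers are named, so PCR copies are not separated from molecules. Rows without a symbol (417 of 26782, 0.0729% of tags) were left out, 40 of 41 symbols turned into dates were restored, and counts were summed per symbol. Same-group libraries differed by more than sampling noise (chi-square per degree of freedom 2.24 to 9.64).

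All 16 libraries were fitted in edgeR 4.0.16 (R 4.3.3) with TMM normalisation, the default filter by group (minimum count 10), a robust quasi-likelihood fit with a mean per group, and Benjamini-Hochberg adjustment over 1046 genes at 0.05. A mean effect averages both diets or both WEPAK states. Contrasts share control mice (HF minus N and HFW minus HF share HF), so their values are not independent. Standard errors are the log2 fold change over the square root of F. Log2 CPM used a prior count of 2, and permutation p values 100000 resamples, two-sided. The functions were tested on simulated counts. EdgeR p-values judge a difference of group means against the spread between mice, estimated with all groups together and moderated across genes. Permutation p-values shuffle mice across groups, so those of the Srebf1 pairs mix group differences with differences between mice of a group.

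Named genes were the 10 members, pathway genes that passed in any contrast, a fixed set of lipid and glucose genes, and the 5 highest and 3 lowest r with Srebf1, Thrsp and Acly, of which some are not reported here. Members and lists were chosen with earlier results of these data known. Alternatives were DESeq2 size factors, no filter, at least 20 counts in 4 or more mice, the DESeq2 1.42.0 Wald test, limma-voom (limma 3.58.1), fits of only the compared groups, a non-robust fit, separate RefSeq rows, thinned libraries, the 10 most abundant genes left out, each mouse left out, and prior counts of 0.5 and 5. Chosen after seeing the data were leaving out N mice 4 and 8, leaving NW mice 11, 12 and 15 out of the relations with Srebf1, and DESeq2 in the setting without a filter.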

Additional observations from a re-analysis of the deposited data

Results flagged for a closer look

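Of 28 groups of 4 mice (7 members in 4 groups), 2 held a mouse whose gap to the nearest other mouse took a larger part of the group's range than Dixon's 95% critical value, which chance gives in about 1 of 20 groups. For Srebf1, NW mouse 20 stood at 1982 CPM with the other 3 at 412 to 444 CPM, a gap of 0.98 of the range. HFW mouse 40 had 329 CPM of Acly, and the next HFW mouse had 162 CPM, a gap of 0.88 of the range. NW mouse 20 also had the highest NW level of Thrsp, Pklr, Acly and Fasn, and HFW mouse 40 the highest HFW level of Thrsp, Pklr and Aacs. On the first principal component NW mouse 20 scored 13.9 among NW mice at 11.1 to 15.0, and HFW mouse 40 scored 6.85, above the other HFW mice at -0.25 to 4.89. The part of either library in these levels was not tested.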

How the results depend on the processing

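No paired analysis was possible because mouse numbers differ in every group. The mean WEPAK calls of Acly and Thrsp kept their direction and their side of the threshold under each alternative run and with each mouse left out. In that contrast 3 members, Srebf1 being the added one, were called with no filter or by limma-voom. Of all genes 254 of 10171 and 322 of 1046 were called there. With each mouse left out 2 to 3 members were called in the mean WEPAK effect and 1 to 2 in NW against N. In HFW against HF 0 to 1 were called (Thrsp without N mouse 4 or NW mouse 11 or 20), and in HFW against NW 0 to 1 (Srebf1 without NW mouse 20). The same fits tested 1059 to 1217 genes. They called 263 to 386 in the mean WEPAK effect and 31 to 178 in NW against N. They called 40 to 150 in HFW against HF and 0 to 3 in HFW against NW. In NW against N 3 members (Acly, Srebf1 and Thrsp) were called with no filter, by DESeq2 or by limma-voom. Of all genes 70 of 10171, 119 of 1046 and 100 of 1046 were called in these settings. With the stricter filter or a non-robust fit 2 members were called (Acly and Thrsp), beside 116 of 683 and 112 of 1046 genes. With the compared groups alone 0 were called, where Acly was below the filter and 90 of 717 genes were called. In HFW against HF 1 member, Thrsp, was called with no filter, by DESeq2, with the compared groups alone or with a non-robust fit. In the same order 106 of 10171, 109 of 1046, 111 of 1004 and 104 of 1046 genes were called. Of the 6 pairs with Srebf1, 2 passed by Pearson's r over 16 mice, and Fasn passed as well by Spearman's rho. Without NW mouse 20 the same 2 passed by r, and Fasn did not pass by rho. By either measure 0 passed without NW mice 11, 12 and 15, where r with Acacb changed sign to 0.026. Among pathway genes called in the mean WEPAK effect, Slc2a2, Pgk1 and Dgat2 did not pass with no filter (edgeR adjusted p = 0.0507, 0.273 and 0.0544), nor did Ldha in NW against N with no filter (0.0881) or by limma-voom (0.0784). The causes were not tested. Counts of 5 to 60 tags per mouse limit Acly, and 0 to 4 tags Acaca, Elovl6 and Me1.

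Changes of sign touched 17 results, none of them called. For HF against N, Srebf1 was 0.043 with no filter and 0.081 in thinned libraries, and Acly 0.095, 0.10 and, by limma-voom, 0.025. Without N mice 4 and 8, HF against N gave -0.038 for Aacs and -0.083 for Fasn, and NW against N gave -0.28 and -0.23. Aacs was -0.20 in HFW against NW in thinned libraries and 0.035 in the mean WEPAK effect with the stricter filter. With each mouse left out, HF against N ran from -0.30 to 0.26 for Srebf1, -0.045 to 0.63 for Pklr, -0.27 to 0.28 for Acly, -0.034 to 0.70 for Aacs and -0.19 to 0.80 for Fasn. HFW against NW ran from -0.85 to 0.086 for Thrsp, -0.45 to 0.29 for Aacs and -0.58 to 0.069 for Acacb. HFW against HF ran from -0.41 to 0.034 for Srebf1, -0.38 to 0.26 for Pklr and -0.61 to 0.21 for Aacs. NW against N ran from -0.066 to 0.51 for Aacs, -0.039 to 0.51 for Acacb and -0.19 to 0.71 for Fasn. For Aacs the mean high-fat effect ran from -0.066 to 0.38 and the mean WEPAK effect from -0.23 to 0.19.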
